A study of Mus musculus with 2 samples.

Results

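Cluster 12 was 1 of the cell populations that the study separated among interstitial cells of the infarcted mouse ventricle, and it was examined here for how its gene detection differed between 2 genotypes. The study counts it among its macrophages and monocytes, together with clusters 0, 3, 11 and 13. Every row of the deposited genotype comparison for this cluster was taken, which gave 650 genes, out of 6477 distinct genes listed over the 18 cluster tables used here. For each gene the table gave the share of cluster 12 cells with a count above 0 in each library, as a fraction with 3 decimals, shown here in percent. A gene was listed by the authors where at least 25% of the cells of either library had a count and where their mean expression differed by at least 0.25 on the log2 scale, so a gene that is absent from the table has no value here and may or may not have differed.

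Both libraries came from mice of 8 to 10 weeks of age whose left anterior descending coronary artery had been ligated, and both strains carried the R26-eGFP reporter and the tamoxifen-inducible PostnMCM allele, in which the periostin gene drives a Cre recombinase in activated fibroblasts. The control library was PostnMCM alone. The other was Yapfl/fl;Wwtr1fl/+;PostnMCM, in which Cre is to excise Yap on both alleles and Wwtr1 on one of them, and it is called the library labelled depleted below. All mice ate chow with tamoxifen at 0.4 g/kg from surgery on, hearts were collected 6 days after injury by the labels (the study's text gives a later day), and live nucleated cells were sorted and captured for 3′ sequencing. There was 1 library per genotype, so no difference below has a replicate check and none was tested, and the genotype cannot be told apart from any other property of the mice or the library. The number of mice per library is not given in the sources used here, and the table gives neither counts nor the number of cluster 12 cells, so no counting error is given for its shares. Because a cell is scored only for having a count, a lower share can stand for fewer molecules per cell, for fewer cells expressing the gene or for shallower sequencing, and these cannot be told apart.

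Circulating monocytes of the mouse fall into a classical population, which carries the chemokine receptor Ccr2 and enters injured tissue early, and a nonclassical population, which patrols the vessel wall and depends on the nuclear receptor Nr4a1. Both can be found in the heart after infarction, where classical monocytes give rise to inflammatory and later reparative macrophages. Interferons act on these cells through transcription factors, which bind short motifs in the promoters of a large set of antiviral and antigen presentation genes.

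The cell type was compared with marker lists. Of 18 nonclassical monocyte markers 10 were listed, and 7 of these were detected in more than 3 in 4 cells of both libraries. Ace, a peptidase that the study's heatmap also marks for this cluster, had a count in 92.7% of control cells and 92.4% of cells labelled depleted. Nr4a1 had 89.6% and 92.4%, the transcription factor Pou2f2 95.8% and 97.5%, and the fractalkine receptor Cx3cr1 92.7% and 86.1%. The sialomucin Spn, also called CD43, was detected in 79.2% and 91.1%. In both libraries these genes were detected in most cells. Ace was listed in no other cluster, but listing needs a genotype difference, so its expression there cannot be read. Only 1 of 20 macrophage markers was listed, Trem2, a lipid-sensing receptor with 28.1% and 20.3%. No marker of dendritic cells (of 9), T and NK cells (of 16), B cells (of 8), red cells and platelets (of 8) or cardiomyocytes (of 8) was listed. Of 12 classical monocyte markers 6 were also listed. In control cells Ccr2 had 86.5%, Hp 83.3%, Fn1 81.2%, Ifitm6 79.2%, Chil3 57.3% and Ms4a4c 38.5%. In cells labelled depleted these had 48.1%, 64.6%, 82.3%, 64.6%, 26.6% and 55.7%. The listed markers therefore go with the study's name in its wider sense of macrophages and monocytes. The highest shares belonged to nonclassical markers, but Hp, Fn1 and Ifitm6 were also in most cells of both libraries. Markers that are not listed could not be read.

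Across the 650 genes, 181 were detected in a share of cells at least 10 percentage points higher in the library labelled depleted (27.8% of genes) and 216 in a share at least 10 points lower (33.2%). The other 253 differed by less, of which 130 were above, 92 below and 31 equal. The median gene was detected in 43.8% of control cells and 44.3% of cells labelled depleted, and the median difference was 0.0 points. Of the 181 higher genes, 81 were under 25% in control, and of the 216 lower genes, 92 were under 25% in the library labelled depleted. These entered the table through a single library, so their direction was fixed by the authors' limit. Differences of at least 20 points were seen for 36 genes upwards and 39 downwards. A share cannot show a difference for a gene that nearly every cell expresses, and 52 genes had 95% or more in both libraries, 31 of them 100% in both. At the lower end, Rpe, Trem1 and Htra3 entered the table with exactly 25% of control cells, and Dusp2, Chd6, Trim25, Oas1a, Oas3 and Gm46485 with 25.3% of cells labelled depleted.

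**Figure D1:**
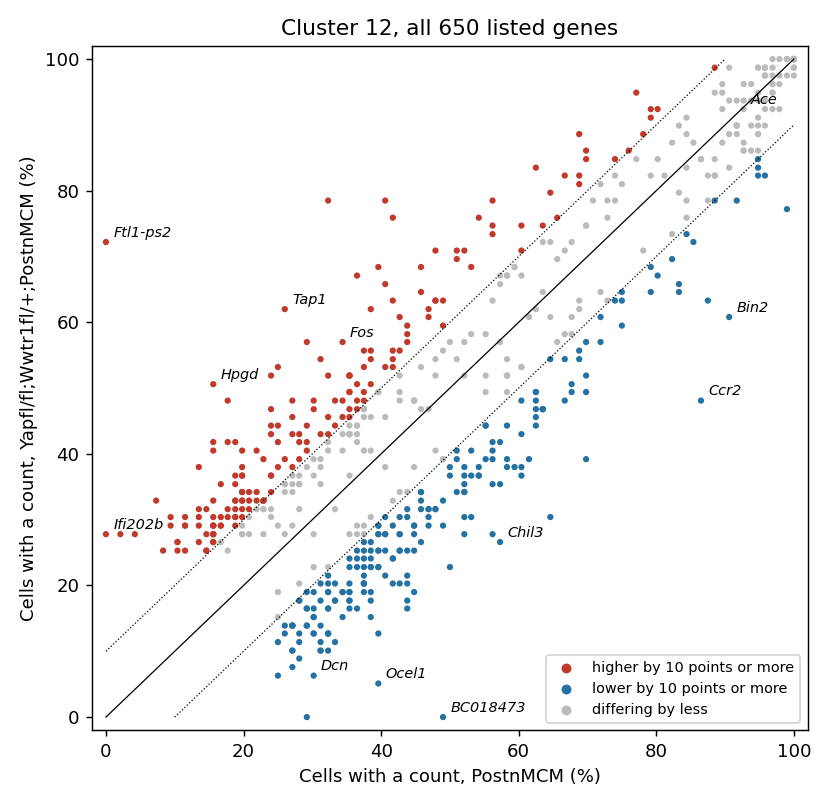
Each point is 1 of the 650 genes of cluster 12, placed by the percentage of PostnMCM cells (horizontal) and of Yapfl/fl;Wwtr1fl/+;PostnMCM cells (vertical) with a count. The solid line marks equal shares and the dotted lines differences of 10 percentage points, with 181 genes above the upper line or on it (red) and 216 below the lower line or on it (blue). The empty lower left corner is the 25% limit of the deposited list.

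The 12 genes whose share lay farthest below control included a receptor of classical monocytes, surface lectins and 2 transcripts at 0 in the library labelled depleted. Ccr2, the receptor for the monocyte chemoattractant Ccl2 (chr9:123901982-123913594, GRCm39), was detected in 86.5% of control cells and in 48.1% of cells labelled depleted. Chil3, a secreted chitinase-like protein of classical monocytes and some macrophages, had 57.3% and 26.6%. Several inhibitory or activating surface receptors of myeloid cells stood lower as well. The C-type lectin Clec12a had 69.8% and 39.2%, the C-type lectin Clec4e, which senses mycobacterial glycolipid and dead cells, 50% and 22.8%, and the Ig-like receptor Cd300lf 43.8% and 16.5%. Bin2, a membrane-curving protein of leukocyte podosomes, had 90.6% and 60.8%, and Sh2d1b1, an adaptor of SLAM family receptors, 56.2% and 27.8%. Thus most control cells had a count for Bin2, Ccr2 and Sh2d1b1, and in the library labelled depleted only Bin2 was still found in most cells. Cox14, an assembly factor of cytochrome c oxidase, had 64.6% and 30.4%. The secreted ribonuclease Rnase4 had 39.6% and 12.7%, and Ocel1, an occludin domain gene of unclear function, 39.6% and 5.1%. The long noncoding RNA BC018473 (chr11:116642993-116650199) had 49.0% and 0.0%, and LOC118568652 had 29.2% and 0.0%. Clec4e, Cd300lf, Rnase4, Ocel1, BC018473 and LOC118568652 were under 25% in the library labelled depleted. They were listed only through control, which fixed their direction.

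Among the 12 genes whose share lay farthest above control were a peptide transporter, a prostaglandin enzyme and 3 pseudogenes. Tap1 (chr17:34405996-34416199), a subunit of the transporter that loads peptides onto MHC class I, was detected in 26% of control cells and 62.0% of cells labelled depleted. Dtx3l, an interferon-induced ubiquitin ligase, had 24% and 51.9%. Both belong to the interferon response. Dtx3l was under 25% in control and was listed only through the library labelled depleted, which fixed its direction. Hpgd (chr8:56747543-56774082), which inactivates prostaglandins, had 15.6% and 50.6%. The sialyltransferase St3gal4, which helps build selectin ligands, had 40.6% and 78.5%, and Pnp, a purine salvage enzyme, 17.7% and 48.1%. The tetraspan protein Ms4a6d had 39.6% and 68.4%, and Ccdc88c, a regulator of Wnt and G protein signals, 25% and 53.2%. Ifi202b, a member of the interferon-inducible Ifi200 DNA sensor family, had 0.0% and 27.8%. The pseudogene Ftl1-ps2 (chr10:130428026-130428574), a processed copy of the ferritin light chain gene, had 0.0% and 72.2%, Gm15682 32.3% and 78.5%, and Rpl27a-ps4 36.5% and 67.1%. Hpgd, Pnp, Ifi202b and Ftl1-ps2 were also under 25% in control, so their direction was fixed in the same way. Pseudogenes and members of close families share sequence with other genes, so how reads were divided between the copies is uncertain for these genes, for the Ifi200 genes and for the H2, Oas, Slfn, Ms4a and Ly6 genes below.

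**Figure D2:**
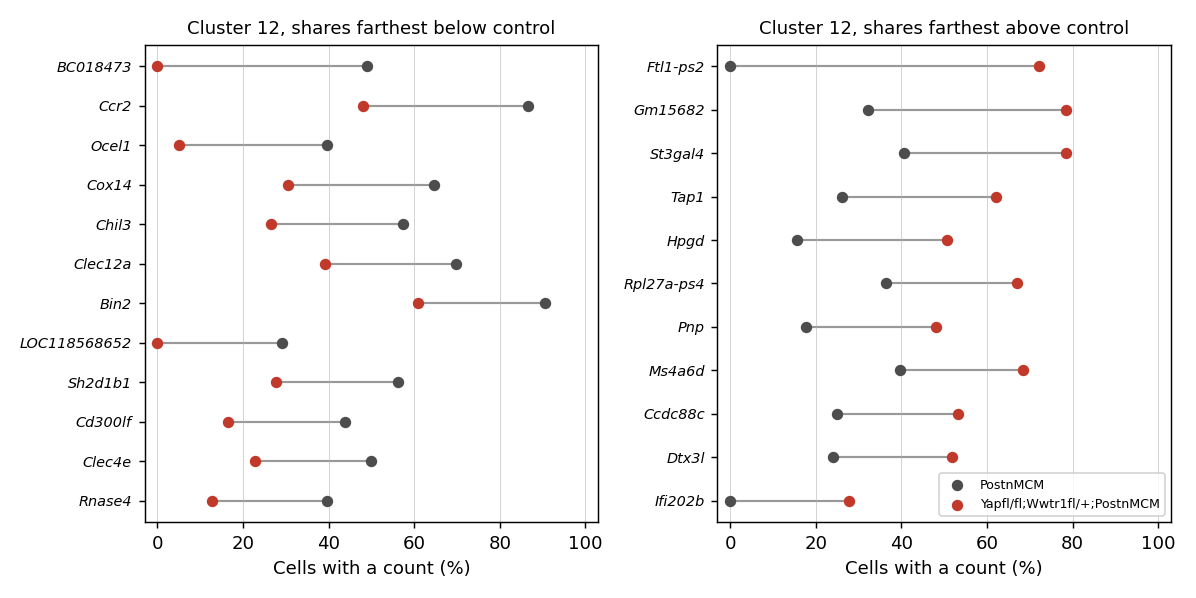
The 12 genes of cluster 12 whose share lay farthest below control (left) and 11 of the 12 farthest above it (right), with 1 line per gene joining the percentage of cells with a count in PostnMCM (grey) and in Yapfl/fl;Wwtr1fl/+;PostnMCM (red). BC018473 and LOC118568652 lie at 0 in the second library, and Ftl1-ps2 and Ifi202b at 0 in the first.

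Markers of the classical population were read next. Of 12 such markers 6 were listed, 4 of them lower by at least 10 points and 1 higher, beside 33.2% and 27.8% of all listed genes, with a median difference of -16.65 points against 0.0 over all 650 genes. Besides Ccr2 and Chil3, the haemoglobin scavenger haptoglobin, Hp, was detected in 83.3% of control cells and 64.6% of the others, and the membrane protein Ifitm6 in 79.2% and 64.6%. The exceptions were Ms4a4c, with 38.5% and 55.7%, and fibronectin, Fn1, with 81.2% and 82.3%. The 10 nonclassical markers had a median difference of -1.0 point, with 2 higher and 3 lower by the same limit. Dusp16, a phosphatase that restrains JNK and p38, had 56.2% and 74.7% and, with Spn, made up the higher pair. The lower ones were Fabp4, a fatty acid carrier with 60.4% and 38.0%, the ribonuclease Ear2 with 94.8% and 84.8%, and the peptidoglycan receptor Pglyrp1 with 88.5% and 78.5%. Apoc2, an activator of lipoprotein lipase, had 33.3% and 31.6%. Fabp4 is also an endothelial marker, and none of the other 5 endothelial markers was listed. The 3 of 10 lower nonclassical markers stand near the 33.2% of all listed genes.

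**Figure D3:**
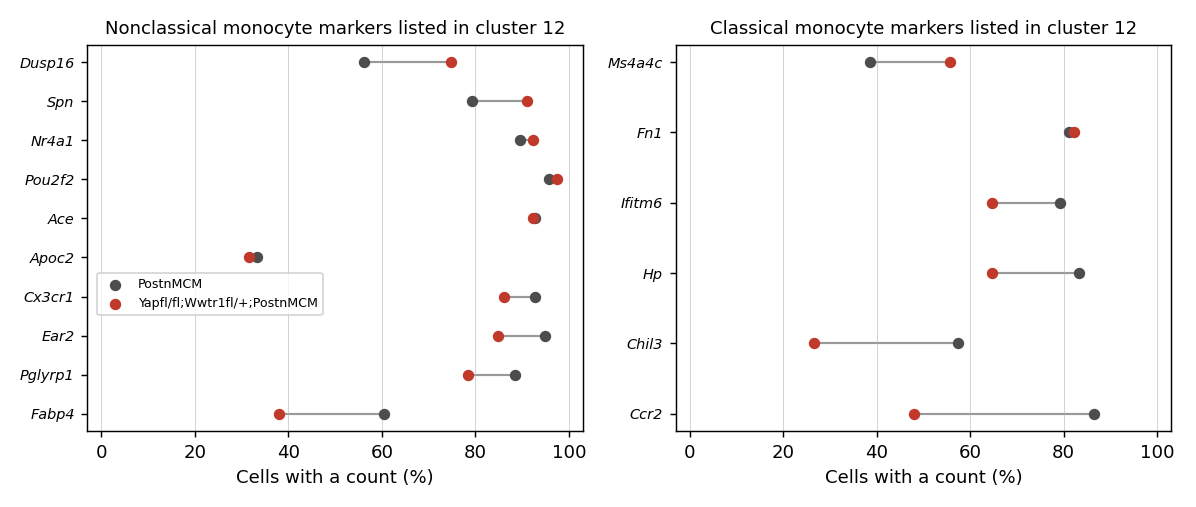
Percentage of cluster 12 cells with a count for the listed markers of nonclassical (left, 10 genes) and classical monocytes (right, 6 genes), in PostnMCM (grey) and Yapfl/fl;Wwtr1fl/+;PostnMCM (red). Ace, Nr4a1 and Pou2f2 nearly coincide between libraries at about 9 in 10 cells, and Ccr2 and Chil3 lie farthest apart on the right.

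Transcripts of other cell types were also found in these cells, and they moved with part of this result. S100a9, a neutrophil calcium-binding protein, was detected in 63.5% of control cells and 46.8% of cells labelled depleted. In other cells that should lack it, its shares varied. S100a9 had 79.7% and 58.3% in B cells of cluster 2, 50.9% and 39.6% in T cells of cluster 8, and 49.7% and 9.1% in fibroblasts of cluster 5. The S100a9 shares of cluster 12 lay between these, so the part of background in them cannot be read. Its partner S100a8 had 47.9% and 51.9%, and no other of the 12 neutrophil markers was listed. Of 10 fibroblast markers 2 were listed. The collagen gene Col3a1 had 30.2% and 19.0%, beside 32.3% and 12.6% in T cells of cluster 7, and the proteoglycan Dcn 30.2% and 6.3%, with no value in any cluster other than the fibroblasts of cluster 5 (99.7% and 100%). Chil3 was likewise detected in T cells, in 38.4% of control cells and 0.6% of cells labelled depleted in cluster 7 and in 25.7% and 0.0% in cluster 8. It was lower by at least 10 points in 12 of the 14 other clusters that list it. Median depths per cell are unknown for all of these clusters. The part of such transcripts in the Chil3 difference was not tested. Ccr2 had no value in the T cell, B cell, neutrophil or fibroblast clusters. Among the 5 other clusters that list it, it was detected in 58.8% and 60.9% of the cells of cluster 0, in 87.5% and 75% in cluster 11, in 89.9% and 69.2% of the NK cells of cluster 14, in 100% and 86.4% in cluster 15, which the study left unidentified, and in every cell of cluster 13 in both libraries. Of the listed classical markers, 2 of 5 were lower by at least 10 points in cluster 0, 1 of 7 in cluster 3, 7 of 9 in cluster 11 and 4 of 10 in cluster 13, where 19.9%, 16.2%, 44.2% and 25.9% of all listed genes were lower. In clusters 0 and 3, 1 and 2 were higher, beside 47.9% and 35.9% of all listed genes, and in clusters 11 and 13 none were.

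Genes of the interferon response were read as a list. From a list of 63 interferon-stimulated genes 18 were in the table, 12 of them higher by at least 10 points and none lower, with a median difference of 15.5 points. For comparison, 27.8% of all listed genes were higher by that limit. Of the 12, 7 were under 25% in control and were listed only through the library labelled depleted, which fixed their direction, so the count and the median are descriptions of the list and no support for a direction. Of the 11 that reached 25% in control, 5 were higher by at least 10 points. Zbp1, a sensor of left-handed nucleic acid, had 31.2% and 54.4%, Bst2, the virus-tethering protein tetherin, 25% and 44.3%, and Irf7, the factor that amplifies type I interferon production, 19.8% and 36.7%. The 3 oligoadenylate synthase genes lay low in control cells, with Oasl2 at 9.4% and 29.1%, Oas3 at 8.3% and 25.3%, and Oas1a at 11.5% and 25.3%. The others were Slfn1 with 16.7% and 35.4%, Slfn5 with 15.6% and 27.8%, Irgm1, an immunity-related GTPase, with 13.5% and 29.1%, and the Ifi200 genes Ifi203 with 27.1% and 43.0% and Mndal with 47.9% and 63.3%. Of the 6 that differed by less, 5 lay above control by 2.0 to 8.5 points (Ifi27l2a, Samhd1, Slfn2, Trim30a and Sp100) and Irf1 lay below it, with 40.6% and 38.0%.

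Antigen presentation by MHC class I had few listed genes. Of 18 on that list 6 were in the table, 3 of them higher by at least 10 points and 1 lower, beside 27.8% and 33.2% of all listed genes. Tap1 was the highest, H2-Q6, a nonclassical class I gene, had 2.1% and 27.8%, and H2-T24 had 13.5% and 38.0%. The direction of H2-Q6 and H2-T24 was fixed by the 25% limit in the same way. The class I heavy chain H2-K1 and the light chain B2m were detected in every cell of both libraries, so their shares could not differ. Psmb10, a subunit of the immunoproteasome, went the other way with 64.6% and 54.4%. The only listed MHC class II gene of 9 was H2-Eb1, with 64.6% and 60.8%.

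The promoters of the interferon-stimulated genes were read for the core of the interferon-stimulated response element, spelled GAAANNGAA and searched on both strands with overlaps allowed, because this motif is known from genes of this response. Windows of 250 bases before to 50 after the start site came from RefSeq (GRCm38.p6), and 10 of the 12 higher genes had one. The motif was in 7 of the 10, Mndal, Ifi203, Oas3, Oas1a, Bst2, Irgm1 and Slfn5, against 9.76% of all 27025 genes with a window, 11.9% of the 523 cluster 12 genes that matched, 20.1% of the genes higher by 10 points and 13% of those lower. It was in 1 of the 5 matched interferon-stimulated genes that differed by less. A match of letters is a description and not a bound site. In Oas1a, Oas3, Bst2 and Irgm1 the motif occurs as overlapping copies, and the 200 bases before the start site of these 4 genes are shown for that reason, 5′ to 3′ along the gene, with the motif in capitals. They lie on the minus strand at chr5:120907526-120907725, chr5:120777660-120777859, chr8:71537473-71537672 and chr11:48871421-48871620 (GRCm38.p6), in the same order.
Oas1a: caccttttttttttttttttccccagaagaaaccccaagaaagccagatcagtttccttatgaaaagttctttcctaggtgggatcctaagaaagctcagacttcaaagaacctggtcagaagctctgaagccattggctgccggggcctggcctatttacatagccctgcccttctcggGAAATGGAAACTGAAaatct
Oas3: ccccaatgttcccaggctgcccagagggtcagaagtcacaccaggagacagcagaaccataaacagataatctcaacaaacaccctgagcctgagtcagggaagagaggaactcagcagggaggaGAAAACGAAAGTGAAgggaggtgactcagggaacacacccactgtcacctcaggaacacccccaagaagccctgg
Bst2: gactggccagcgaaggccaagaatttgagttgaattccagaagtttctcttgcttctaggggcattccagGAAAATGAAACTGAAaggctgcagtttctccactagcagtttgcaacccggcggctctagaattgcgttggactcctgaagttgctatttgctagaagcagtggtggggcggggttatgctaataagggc
Irgm1: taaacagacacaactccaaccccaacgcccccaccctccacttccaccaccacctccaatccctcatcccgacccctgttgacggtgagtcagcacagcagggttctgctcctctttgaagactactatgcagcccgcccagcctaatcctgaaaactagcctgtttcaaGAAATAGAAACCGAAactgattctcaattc
The copies begin 20 and 14 bases before the start in Oas1a, 75 and 69 in Oas3, 130 and 124 in Bst2, and 30 and 24 in Irgm1, so each pair is spaced alike and shares 3 bases.

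The same genes were then followed into the other macrophage and monocyte clusters, each with its own values, since all clusters come from the same pair of libraries. On the list of 63, 26 of 30 listed genes were higher by 10 points in cluster 0, 10 of 16 in cluster 3, 9 of 18 in cluster 11 and 8 of 14 in cluster 13, where 47.9%, 35.9%, 26.2% and 41.7% of all listed genes were higher. Bst2 and Oasl2 were higher by at least 10 points in all 4 of these clusters. Tap1 had 26.3% and 48.3% in cluster 0 and 46.5% and 62.1% in cluster 3. Slfn1, higher in cluster 12, had 44.4% and 27.1% in cluster 11. No interferon-stimulated gene of cluster 12 was particular to it, as every one of the 18 was listed in at least 1 other cluster.

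**Figure D4:**
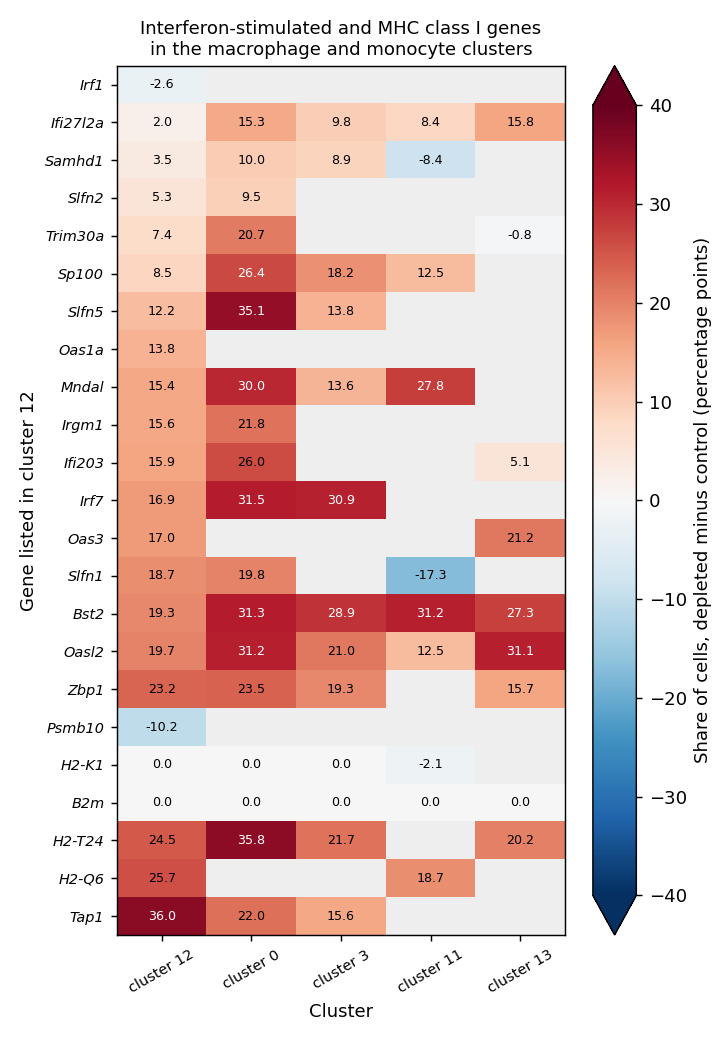
Difference in the percentage of cells with a count, Yapfl/fl;Wwtr1fl/+;PostnMCM minus PostnMCM in percentage points, for 17 of the 18 interferon-stimulated genes (upper rows) and 6 MHC class I genes (lower rows) listed in cluster 12, in cluster 12 and in the other 4 macrophage and monocyte clusters. Blank cells are genes not listed in that cluster, and only Bst2, Oasl2, Ifi27l2a and B2m have a value in all 5.

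Immediate early genes are switched on within minutes of a stimulus or of dissociation. Of 27 such genes 8 were listed, 4 of them higher by at least 10 points and none lower, beside 27.8% and 33.2% of all listed genes. Fos, a subunit of AP-1, was detected in 34.4% of control cells and 57.0% of the others, Dusp1, a MAP kinase phosphatase, in 37.5% and 55.7%, Klf6 in 68.8% and 81.0%, and Jund in 76.0% and 86.1%. Nfkbia, the inhibitor that NF-kB itself induces, had 62.5% and 83.5%. Among the other 3 listed genes on its list, Tnfaip2 had 37.5% and 49.4%, the survival gene Bcl2a1a 52.1% and 34.2%, and the death effector Bax 55.2% and 49.4%. Hspa1b, a stress-induced chaperone, had 15.6% and 29.1%, while the mitochondrial chaperone Hspd1 had 43.8% and 31.6% and its partner Hspe1 63.5% and 64.6%.

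Factors that set monocyte and macrophage fate were divided. Of 28 transcription factors on the list 9 were in the table, 4 lower by at least 10 points and 1 higher, beside 33.2% and 27.8% of all listed genes, and the median difference was 1.7 points. Cebpd, a factor of inflammatory myeloid gene expression, had 43.8% and 17.7%, and the inhibitors of helix-loop-helix factors Id3 and Id2 had 43.8% and 30.4% and 39.6% and 29.1%. Irf8, a factor that both dendritic cells and monocytes need, had 75% and 64.6%. Hes1, a Notch target, was the higher one, with 21.9% and 32.9%. Cebpd was under 25% in the library labelled depleted, and Hes1 was under 25% in control. Each was listed only through the other library, which fixed its direction. Receptors and adhesion molecules were divided. Selplg, the selectin ligand PSGL-1, had 68.8% and 82.3%, and Cxcr4, the receptor that retains leukocytes in marrow, 32.3% and 43.0%, which with Spn made 3 of 7 listed chemokine and adhesion receptors higher, and Ccr2 was the 1 that was lower. Over all listed genes 27.8% were higher and 33.2% lower. Of 24 Fc and phagocytic receptors 7 were listed and 2 were lower, Clec4e and Cd300lf. Both were under 25% in the library labelled depleted and were listed only through control, which fixed their direction. The inhibitory Fc receptor Fcgr2b had 47.9% and 40.5%. The only listed gene of 28 cytokines, chemokines and inflammasome genes was Tgfb1, with 78.1% and 70.9%.

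Metabolic and housekeeping groups had few members past the limit. Of 77 respiratory chain genes 12 were listed and 2 were lower, both anchors of succinate dehydrogenase: Sdhc with 31.2% and 11.4%, and Sdhd with 37.5% and 21.5%. Both were under 25% in the library labelled depleted and were listed only through control, which fixed their direction. The complex I subunits Ndufa12 and Ndufb11 had 32.3% and 22.8% and 68.8% and 62.0%. Glycolysis had 3 listed genes of 21, with the phosphofructokinase Pfkp lower at 40.6% and 25.3%, the hexokinase Hk2 at 27.1% and 34.2% and Eno1 at 94.8% and 93.7%. Of 25 lysosomal genes 7 were listed and 2 were lower, the acid lipase Lipa with 62.5% and 45.6% and the protease Ctsc with 95.8% and 82.3%, beside Hexa with 58.3% and 51.9% and Ctsd with 88.5% and 84.8%. These 2 of 12, 1 of 3 and 2 of 7 lower genes stand beside 33.2% of all listed genes. In lipid handling, the phospholipid transfer protein Pltp had 36.5% and 41.8%. Of 9 iron handling genes 5 were listed, with Ftl1-ps2, described above, higher and 1 lower. The lower one was the biliverdin reductase Blvrb with 40.6% and 30.4%, while haem oxygenase Hmox1 had 44.8% and 38.0% and ferritin heavy chain Fth1 100% in both. Among 8 listed actin cytoskeleton genes Was, the activator of Arp2/3 that is lost in Wiskott-Aldrich syndrome, was the only one past the limit, with 60.4% and 36.7%, and Rac2, Myl12b and Actr3 lay above 90% in both libraries. Annexin A5, Anxa5, had 69.8% and 86.1%, S100a13 67.7% and 60.8%, and the chromatin protein Hmgb2, the 1 listed gene of 30 of the cell cycle, 88.5% and 98.7%.

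Genes listed in cluster 12 alone were separated from those shared across clusters. There were 63 of the former, 9.69% of the list, 391 genes listed in 1 to 4 of the other 17 cluster tables and 196 listed in 5 or more. Of the 63, 22 were higher and 22 lower by at least 10 points, beside 27.8% and 33.2% of all listed genes. The higher ones were led by Hpgd, followed by the Ly6 family surface protein Ly6i (chr15:74851383-74855279) with 29.2% and 57.0%, the lipid phosphodiesterase Smpdl3b with 24% and 44.3%, Dusp16, the Integrator-related gene Ints6l with 19.8% and 38.0%, and Anapc1, a subunit of the anaphase-promoting complex, with 10.4% and 26.6%. Lower ones were Dmac1, an assembly factor of complex I, with 32.3% and 10.1%, and Sdhc with 31.2% and 11.4%. The endosomal GTPase Rab21 and the GTPase-activating protein Arhgap11a had 32.3% and 12.7% each. The endosomal sorting subunit Vps28 had 46.9% and 29.1%, and the phosphatase Ppm1g 35.4% and 17.7%. Hpgd, Smpdl3b, Ints6l and Anapc1 were under 25% in control. Dmac1, Sdhc, Rab21, Arhgap11a and Ppm1g were under 25% in the library labelled depleted. Each of these was listed only through the other library, which fixed its direction. Ly6i, Dusp16 and Vps28 reached 25% in both libraries. Ace was also among the 63. Being listed alone means that no other cluster passed the authors' limits on share and fold for that gene, and not that the gene was unchanged elsewhere. With cluster 12, 380 genes were listed in at least 1 of the other 4 macrophage and monocyte clusters, 236 in cluster 0, 127 in cluster 3, 158 in cluster 11 and 192 in cluster 13, and 38 in all 4. Another 207 were listed only outside them.

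**Figure D5:**
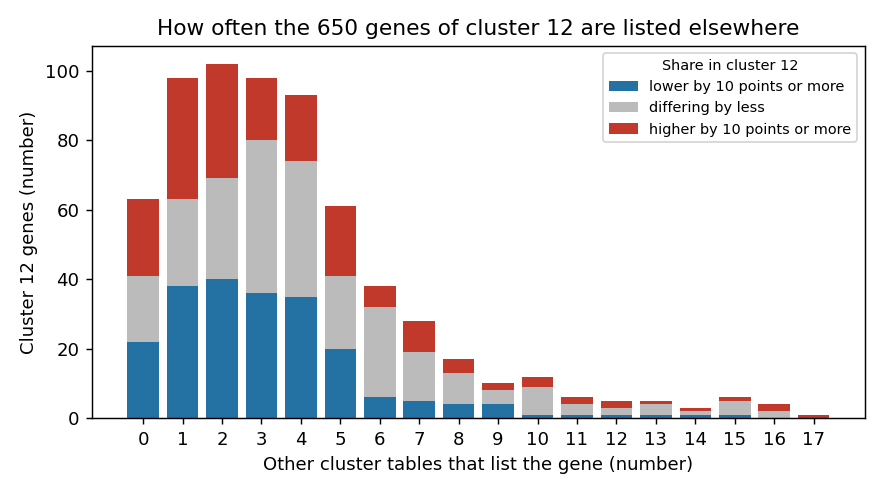
Number of cluster 12 genes (vertical) by the number of the other 17 cluster tables that list the same gene (horizontal), coloured by the difference in share within cluster 12. The 63 genes at 0 are listed in cluster 12 alone, and 1 gene, Ftl1-ps2, is listed in all 17 others.

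The most widely shared genes were chiefly pseudogenes and transcripts seen in many lineages. Ftl1-ps2 was higher by at least 10 points in all 17 other clusters, with control shares of 0.0% to 5.2% and shares of 28.3% to 100% in the library labelled depleted. Gm15682 was higher in 16 others, Rpl27a-ps4 in 15 of the 16 that list it and Rpl34-ps1, with 7.3% and 32.9% in cluster 12, in 15. A pair of protein-coding genes went with them, St3gal4, higher in 13 of 14, and the cytidine deaminase Apobec3, with 13.5% and 31.6% in cluster 12 and higher in all 13 others. On the lower side BC018473 was at 29.0% to 100% in control and 0.0% to 1.1% in the other library in 15 clusters, Ocel1 was lower in all 10 others and S100a9 in all 12. The pseudogene Gm12191, with 37.5% and 20.3%, was lower in all 13 others, and Wdr83os, a subunit of an endoplasmic reticulum chaperone complex, with 42.7% and 25.3%, in 10 of 11. Ifi202b was at 0.0% of control cells in all 5 other clusters that list it, with 27.1% to 80.3% in the library labelled depleted. Each of these genes also differed by at least 10 points the same way in other clusters, so none was particular to cluster 12. In cluster 12 Ftl1-ps2, Rpl34-ps1, Apobec3 and Ifi202b were under 25% in control, which fixed their direction. BC018473, Ocel1 and Gm12191 were under 25% in the other library, with the same effect.

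Yap1, Wwtr1 and Postn, the targeted genes and the Cre driver gene, were listed neither in cluster 12 nor in any other cluster table. In the 4 fibroblast subclusters, whose tables hold genes without those limits, Yap1 was detected in a larger share of cells of the library labelled depleted in 3, with 46.2% and 56.2% in subcluster 0, 23.3% and 43.5% in subcluster 3 and 30.4% and 47.6% in subcluster 5, and in a smaller share in subcluster 4, with 57.5% and 40%. Wwtr1 was detected in a smaller share in 3 of the 4, with 93.3% and 91.3% in subcluster 3, 80% and 60% in subcluster 4 and 100% and 85.7% in subcluster 5, and in a larger share in subcluster 0, with 81.4% and 90.6%. Postn was detected in a larger share in subclusters 0, 4 and 5 and in a smaller one in subcluster 3, with 40% and 13%. Whether the 3′ end that was sequenced lies outside the excised part is not given in the sources used here, so this does not check the labels.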

How the data were processed

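The data were 1 single-cell library per genotype, 2 in all. Per the study's methods, the authors aligned reads with Cell Ranger 6.1.1 to GRCm39 with NCBI annotation and the reporters, combined the libraries without equalising depth, normalised counts with SCTransform in Seurat with mitochondrial content regressed out, removed low-quality clusters, and compared genotypes within each cluster. The authors deposited, for each gene and library, the fraction of cells with a corrected count above 0. The deposited log2 fold changes, p-values and adjusted p-values of the authors' own comparison were not used. No doublet caller is named in the sources used here.

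The deposited fractions were turned into percents with pandas 2.3.3 and compared by subtraction (depleted minus control), with a limit of 10 percentage points. No test was run, since there was 1 library per genotype, and the calling step was checked on simulated data. A fraction moves with sequencing depth, which the tables do not give per cluster, and with ambient RNA. Gene positions were read from the GENCODE annotation of GRCm39 and promoters from RefSeq. Named genes were the 12 farthest above and the 12 farthest below control, 6 per direction of those listed in cluster 12 alone, 6 per direction of those differing alike in most other clusters, every listed cell type marker and up to 4 members of each gene group with the largest difference. The gene lists and cluster 12 itself were chosen with earlier results of these data known. Alternatives were limits of 5 and 20 points, a log2 ratio of shares of at least 0.5 with 1 point added to each, genes at 50% of cells or more, and leaving out pseudogenes, predicted genes and cytosolic ribosomal protein genes. For the listing counts, clusters 6, 9 and 10, which came mostly from 1 genotype, were left out in turn as a set. Some named genes are not reported here. Cluster 16 and the comparison for it were not analysed here.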

Additional observations from a re-analysis of the deposited data

Results flagged for a closer look

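Among the 105 genes that the naming rule chose, 11 were at least 10 percentage points higher in 1 of the macrophage and monocyte clusters and at least 10 lower in another, when cluster 12 was set beside clusters 0, 3, 11 and 13. Each comparison rests on 1 library per genotype, and none of these differences between clusters was tested. Differences are given as the library labelled depleted minus control.

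Surface receptors made up several of them. Cd300lf differed by -27.3 points in cluster 12 and by 16.0 in cluster 13, where it was detected in 43.2% of control cells and 59.2% of the others. Clec4e differed by -27.2 and, in cluster 13, by 12.6. In clusters 11 and 12 Cd300lf and Clec4e were under 25% in the library labelled depleted, which fixed their direction there. Clec12a differed by -30.6 and, in cluster 3, by 11.4, and the classical monocyte marker Ifitm6 by -14.6 and, in cluster 3, by 10.2. In other macrophage clusters these genes differed the same way as in cluster 12, Clec12a by -18.1 in cluster 11 and -20.9 in cluster 13, Ifitm6 by -15.2 and -15.8 there, and, in cluster 11, Cd300lf by -36.1 and Clec4e by -18.1. Ms4a6d went the opposite way, with 28.8 points in cluster 12 and -25.0 in cluster 11, and the selectin ligand Selplg had 13.5 and, in cluster 13, -15.2, with 23.5 in cluster 0.

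Genes of signalling and stress made up the rest. Fos differed by 22.6 points in cluster 12 and by -15.3 in cluster 0, from a control share of 34.4% in the former and 75.4% in the latter, and by 13.6 in cluster 13. Jund had 10.1 points and, in cluster 11, -30.6, and Tnfaip2 11.9 and, in cluster 11, -27.8. The chaperone Hspa1b had 13.5 points and, in cluster 13, -11.5, with 13.1 in cluster 0. The glycolytic enzyme Pfkp had -15.3 points and, in cluster 13, 24.1. Over all 397 genes past the limit in cluster 12, 44 had such an opposite difference in at least 1 of the 4 clusters.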

How the results depend on the processing

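Counts of genes moved with the limit. With a limit of 20 points, 36 genes were higher and 39 lower, among them 2 interferon-stimulated genes higher and 2 classical monocyte markers lower. By the log2 ratio, 119 genes were higher and 2 classical monocyte markers lower. Restricted to the 325 genes that reached 50% in one library or the other, 72 were higher, 84 lower, 11 listed in cluster 12 alone, 240 shared with another macrophage cluster and 3 interferon-stimulated genes higher. When a gene counted as listed elsewhere only if it differed there by at least 10 points the same way, 225 genes were listed in cluster 12 alone and 223 in another macrophage cluster too. Under the other alternatives each of these counts stayed within 1.5 times its value, including 89 genes in cluster 12 alone once clusters 6, 9 and 10 were left out. The alternatives for interferon-stimulated genes and classical monocyte markers were chosen after seeing the data. No paired analysis was possible because each genotype had a single library and no test was run. Leaving out a library was not possible for the same reason. The tables give neither depth nor cells per cluster, so no interval is given for any share.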

Other observations

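Some families of related genes, which share a few members with the lists above, also stood together in cluster 12. They were picked after their values were seen, so their counts are descriptions only. Of 8 listed proteasome subunits and activators 6 were lower by at least 10 percentage points in the library labelled depleted, with a median difference of -12.15 points against 0.0 over all 650 genes, of which 33.2% were lower by that limit. Psmd1, a scaffold subunit of the regulatory particle, was detected in 35.4% of control cells and 17.7% of the others, Psmd12 in 34.4% and 19.0%, and the ubiquitin receptor Psmd4 in 68.8% and 55.7%, while the catalytic subunit Psmb5 had 62.5% and 62.0%. Of the 6, Psmd1, Psmd12 and Psmd7 were under 25% in the library labelled depleted and were listed only through control, which fixed their direction. All 4 listed proteins of the small mitochondrial ribosomal subunit were lower, from Mrps26 with 28.1% and 8.9% to Mrps16 with 35.4% and 24.1%, though all 4 reached the 25% that listing needs in control alone. The 4 listed C-type lectin receptors were lower too, with a median of -24.3 points, and besides Clec12a and Clec4e these were Clec4a2 with 41.7% and 20.3% and Clec4n, which recognises fungal mannans, with 31.2% and 10.1%. Clec4e, Clec4a2 and Clec4n were likewise listed only through control.

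On the higher side, 3 of 4 Schlafen genes passed the limit, the largest being Slfn8 with 15.6% and 40.5%, and 3 of 4 Trim genes, which encode ubiquitin ligases, several of them interferon-induced, among them Trim26 with 11.5% and 29.1% and Trim12a with 13.5% and 30.4%, beside 27.8% of all listed genes. Each of these Schlafen and Trim genes past the limit was under 25% in control and was listed only through the library labelled depleted, which fixed its direction. The Ms4a family had 3 of 5 higher, with Ms4a6b at 60.4% and 74.7%. Ubiquitin-specific proteases were divided, with 3 of 5 higher and Usp8, which acts on endosomal cargo, lower at 54.2% and 38.0%. Per1, a repressor of the circadian clock, had 4.2% and 27.8%, and the glucocorticoid-induced gene Tsc22d3 had 54.2% and 75.9%, whereas Fkbp5, another glucocorticoid target, had 53.1% and 30.4%. These last 3 genes were also chosen after their values were seen, and Per1 was under 25% in control, which fixed its direction.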
